A study of Mus musculus with 15 samples.

Results

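Genes of DNA replication and genes of mitosis were followed across NIH3T3 cells that carried different members of the Runx family of transcription factors. The 47 genes were taken from a list of symbols and read through the brightest annotated probe set of each, with no threshold on a measured change. Probe sets were found for 46 of them, among 18193 genes on the array: 19 act around S phase, the part of the cell cycle in which DNA is copied, and 27 act in mitosis, out of 28 listed. The mitotic cyclin gene Ccnb1 had no probe set in the annotation used and was not analysed here.

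NIH3T3 is an immortalised line of mouse fibroblasts. All cells had been transduced with the retroviral vector pBabe-puro and kept in culture until confluent, over 7 days, before ethanol at 0.2% was added, alone or carrying 4-hydroxytamoxifen (4-OHT, given as 0.1 mM), for the last 24 h. The 15 Affymetrix arrays fell into 8 groups: empty vector, empty vector with 4-OHT, uninduced RUNX1-ER, RUNX1-ER induced with 4-OHT, mouse Runx1, mouse Runx2 and mouse Runx3 with 2 arrays each, and human RUNX1 with 1 array. RUNX1-ER is an inducible human RUNX1, by its name joined to the hormone-binding part of the oestrogen receptor, which 4-OHT occupies. The other Runx genes were expressed constitutively, and the labels do not say whether those lines had ethanol or 4-OHT, nor whether a line was a clone or a pool. The 2 arrays of a group are called biological replicates, but nothing says that they came from separate transductions or cultures, and the p-values below therefore reflect the spread between arrays alone, possibly technical.

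Replication genes and mitotic genes are switched on at successive times of the cell cycle. E2F proteins bound to their sites drive genes for origin licensing, the replicative helicase and nucleotide supply as cells leave G1, whereas many mitotic genes rise later and carry a cell cycle homology region (CHR), which the MuvB core of the DREAM complex, and later its partners B-Myb and FoxM1, use, beside CCAAT boxes bound by NF-Y. Runx proteins bind their own core motif through the Runt domain and are known as regulators of proliferation and differentiation in blood, bone, cartilage and epithelia. NIH3T3 cells are known to slow their division at confluence. An array of a whole culture cannot tell fewer cells in a phase from less RNA of these genes in each cell.

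The promoters show the sequence difference between the lists, which the choice of members did not use. RefSeq windows (GRCm38.p6) of 300 bases, 250 before and 50 after the start of the gene, were available for 16 S phase and 24 mitotic genes (Ccnb1 included) and for 27025 genes in all. The 150 bases before the start are shown for 4 mitotic and 3 S phase genes that recur in the results below. All 7 hold the CHR or E2F letters of their list, so they are examples and do not stand for the lists. Nusap1 had no CHR letters in its window and Ung no E2F letters. In the mitotic sequences the capitals mark the CHR letters TTTGAA and the CCAAT box, on either strand, and in the S phase sequences they mark the E2F letters TTTGGCGC or TTTCCCGC and the CCAAT box, on either strand. No marked motifs overlap. Positions below are counted from the start of the gene, with −1 the last base before it. In the order shown, the stretches are chr7:80294326-80294475 on the plus strand (the second of 2 annotated starts), chr2:164769779-164769928 on the plus strand, chr7:135716380-135716529 on the minus strand, chr4:118437344-118437493 on the minus strand, chr1:128359706-128359855 on the minus strand, chr8:75109359-75109508 on the plus strand and chr11:98908001-98908150 on the plus strand.
Prc1: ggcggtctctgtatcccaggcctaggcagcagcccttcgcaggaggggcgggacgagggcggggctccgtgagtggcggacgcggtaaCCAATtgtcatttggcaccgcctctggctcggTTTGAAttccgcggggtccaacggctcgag
Ube2c: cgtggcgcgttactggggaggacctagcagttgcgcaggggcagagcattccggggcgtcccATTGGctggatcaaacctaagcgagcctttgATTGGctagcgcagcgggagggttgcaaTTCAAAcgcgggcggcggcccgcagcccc
Mki67: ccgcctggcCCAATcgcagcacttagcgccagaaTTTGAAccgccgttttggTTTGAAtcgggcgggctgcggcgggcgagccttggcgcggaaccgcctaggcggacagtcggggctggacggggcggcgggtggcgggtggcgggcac
Cdc20: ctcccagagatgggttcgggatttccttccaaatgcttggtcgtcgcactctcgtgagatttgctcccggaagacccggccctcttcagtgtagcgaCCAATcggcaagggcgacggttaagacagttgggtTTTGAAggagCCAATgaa
Mcm6: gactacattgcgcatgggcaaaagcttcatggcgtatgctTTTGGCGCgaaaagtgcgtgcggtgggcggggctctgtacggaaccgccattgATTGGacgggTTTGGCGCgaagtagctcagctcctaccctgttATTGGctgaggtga
Mcm5: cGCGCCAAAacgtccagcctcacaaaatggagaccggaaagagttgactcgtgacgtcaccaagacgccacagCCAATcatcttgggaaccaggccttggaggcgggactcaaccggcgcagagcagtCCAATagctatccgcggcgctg
Cdc6: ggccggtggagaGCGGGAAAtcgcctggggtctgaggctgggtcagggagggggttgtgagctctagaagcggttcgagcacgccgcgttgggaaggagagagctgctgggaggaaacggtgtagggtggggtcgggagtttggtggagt

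In Prc1, which encodes a protein that bundles microtubules between the separating chromosomes, the CHR letters lay at −30 to −25 and a CCAAT box at −62 to −58. Ube2c, the ubiquitin-conjugating enzyme of the anaphase-promoting complex, had the CHR letters on the opposite strand at −29 to −24, with CCAAT boxes further out. Mki67, the gene of the Ki-67 antigen that coats mitotic chromosomes, held the letters at −116 to −111 and again at −98 to −93. In the promoter of Mcm6, a subunit of the replicative helicase, the E2F letters stood at −110 to −103 and at −47 to −40, and in that of Cdc6, which loads the helicase onto origins, they stood on the opposite strand at −138 to −131. The CHR letters of Cdc20 lay at −18 to −13, and the E2F letters of Mcm5, on the opposite strand, at −149 to −142. Among the genes shown, the CHR letters thus lay close to the start in Prc1, Ube2c and Cdc20 and further out in Mki67. The E2F positions differed between genes. Those of Prc1 are counted from the annotated start shown above and would differ from its other start.

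Over the whole windows, the CHR letters were found in 18 of 24 mitotic genes (75%) and 2 of 16 S phase genes (12.5%), against 20.2% of all genes. The E2F letters showed the reverse order, with 6 of 16 S phase genes (37.5%), 0 of 24 mitotic genes and 1.80% of all genes. CCAAT was present in 21 of 24 mitotic genes (87.5%), 10 of 16 S phase genes (62.5%) and 41.1% of all genes. For the Runx core, searched as TGTGGT or TGCGGT, the shares were 20.8% of mitotic genes, 18.8% of S phase genes and 25% of all genes. A match to such short letters describes the sequence and is not evidence of a bound site. Longer lists of further genes of both processes gave the CHR letters in 61.7% of 47 mitosis genes and 15% of 40 replication genes. In the same order, the E2F letters were in 10.6% and 27.5%, and the Runx core letters in 12.8% and 35%.

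**Figure D1:**
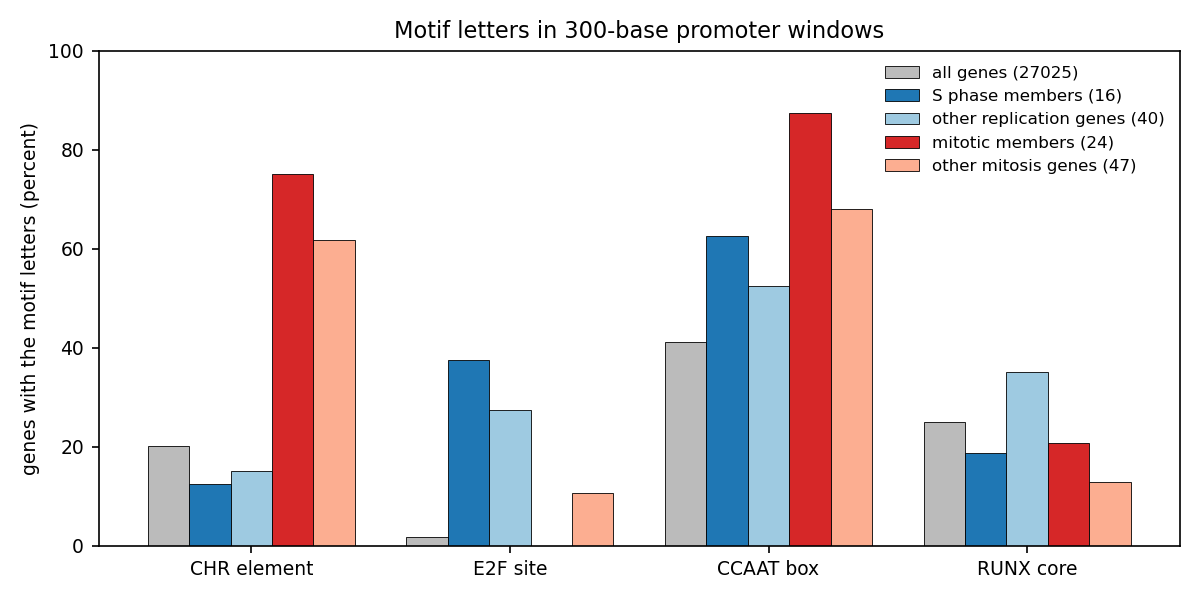
Share of genes whose 300-base promoter window holds the letters of each motif on either strand, in percent, for all genes (27025), the S phase (16) and mitotic (24) members and the longer lists of other replication (40) and other mitosis (47) genes. The CHR bar of the mitotic members stands at 75% and that of the S phase members at 12.5%, while for the E2F letters the S phase bar stands at 37.5% and the mitotic bar at 0.

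The arrays were of similar overall level, with medians between 3.69 and 3.75 log2 units. The single human RUNX1 array stood apart from the rest: its closest correlation with another array was r = 0.991, the lowest among the 15, and its 75th percentile, 5.48, was also the lowest. Of the fibroblast markers, 9 of 10 were bright, and collagen genes Col1a1, Col1a2 and Col3a1 lay above the 99th percentile of genes, but the Lum probe set was dim, at percentile 14.1. Defining genes of blood (Ptprc), endothelium (Pecam1, Cdh5), fat (Adipoq) and muscle (Myod1) stayed between 2.86 and 3.72 on all arrays, near or below the array medians. The blood genes Cd3e (4.31 to 4.86) and Lyz2 (4.01 to 4.62) and the muscle gene Des (4.85 to 5.47) lay above those medians on every array. So did the epithelial genes Epcam (4.83 to 5.46), Krt8 (3.98 to 6.94) and Krt5 (4.03 to 4.50). The epithelial genes Krt14, Krt18 and Cdh1 had medians of 3.50, 3.53 and 3.17, and Cdh1 reached 4.42. The endothelial gene Kdr, the fat gene Fabp4 and the muscle gene Myog reached 3.85, 3.89 and 3.79. Among the members, the Tyms probe set was below the array medians on average, at 3.33, and RMA compresses differences at that level, so a change of Tyms could hardly be seen.

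The Runx3 line had lower levels of mitotic genes, and no change of the S phase genes passed the test. Against vector, 11 of 27 mitotic genes fell and 0 rose at an adjusted p of 0.05 (limma, Benjamini-Hochberg over all genes). In the same comparison 9.37% of all genes were called either way, and 5.4% of all genes were called lower. Such shares, here and below, include many dim genes, and the shares among genes as bright as the members are not given. The change was negative in 26 of 27 mitotic genes, and in 25 both Runx3 arrays lay below both vector arrays, which was so for 24.5% of all genes. The median change was −0.31 log2 units for the mitotic genes, with a range from −0.75 to 0.05, beside 0.00 for all genes. Of the 19 S phase genes 0 were called by limma, and 3 had an unadjusted p under 0.05 (20 of the mitotic genes and 19.7% of all genes did). The S phase median change was 0.02, with Cdc6 at 0.34 and Ung at 0.30 the largest values. A further bright probe set of Mcm4 and of Mcm6 read −0.43 and −0.39, beside 0.00 and 0.01 on the brightest. For Rrm1 a further one read 0.25, beside 0.09. Other S phase probe sets lay on both sides of 0.

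Anln and Ect2, which act in cytokinesis, fell. Anln encodes anillin, a scaffold of the contractile ring. It read 9.17 and 9.22 on the vector arrays and 8.37 and 8.51 on the Runx3 arrays, while the other 11 arrays lay between 8.98 and 9.24. Both Runx3 arrays were thus the lowest of the 15, and the change was −0.75 (SE 0.08, 1.69-fold lower, limma adjusted p = 6.78e-05, n = 2 against 2). Ect2, the exchange factor that activates RhoA at the cell equator, read 7.49 and 7.60 with vector and 6.79 and 6.83 with Runx3. The change was −0.73 (SE 0.14) with a limma adjusted p of 0.00489. When vector replicate 2 was left out the limma adjusted p became 0.0535. The other Ect2 values ran from 7.32 to 7.82, above both Runx3 arrays.

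At the centromere and on the spindle the falls were uneven. Cenpf, a large protein of the outer kinetochore, read 7.43 and 7.39 with vector and 6.72 and 6.60 with Runx3, a change of −0.75 (SE 0.09, limma adjusted p = 1.10e-04). Its other probe sets were dim, with values of −0.00 and −0.08, and with the mean of all its probe sets the call was lost (adjusted p = 0.192). Nusap1, which bundles spindle microtubules, read 7.89 and 7.90 with vector and 7.34 and 7.07 with Runx3, so the Runx3 arrays differed from each other but neither overlapped the vector arrays (−0.69, SE 0.11, limma adjusted p = 0.00109). Prc1 fell by 0.54 (SE 0.09) and Hmmr, a protein of spindle assembly, by 0.38 (SE 0.09). The histone variant Cenpa, which marks centromeric chromatin, and the kinesin Cenpe did not pass, at −0.16 and −0.25, nor did the kinesins Kif11, Kif20a and Kif23, at −0.31, −0.32 and −0.16, nor Tpx2 and Birc5 (survivin), at −0.26 and −0.21.

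Ube2c read 10.09 and 10.08 with vector and 9.48 and 9.43 with Runx3 (−0.63, SE 0.10, limma adjusted p = 0.000903), whereas Cdc20, the activator of the same complex, was at −0.23 (SE 0.08) and did not pass (limma adjusted p = 0.120). Of the kinases, Aurkb, the kinase of the chromosomal passenger complex, fell by 0.58 (SE 0.10), Aurka by 0.36 (SE 0.09) and the checkpoint kinase Bub1 by 0.41 (SE 0.10). Plk1, Nek2, Bub1b and Ttk were between −0.27 and −0.12 and did not pass. The cyclin genes Ccna2 and Ccnb2 and their kinase Cdk1 did not pass either, at −0.18, −0.33 and −0.16. Mki67 fell by 0.46 (SE 0.11). Top2a, the topoisomerase that untangles chromosomes, was the exception in sign, at 0.05 (SE 0.09), with overlapping arrays.

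**Figure D2:**
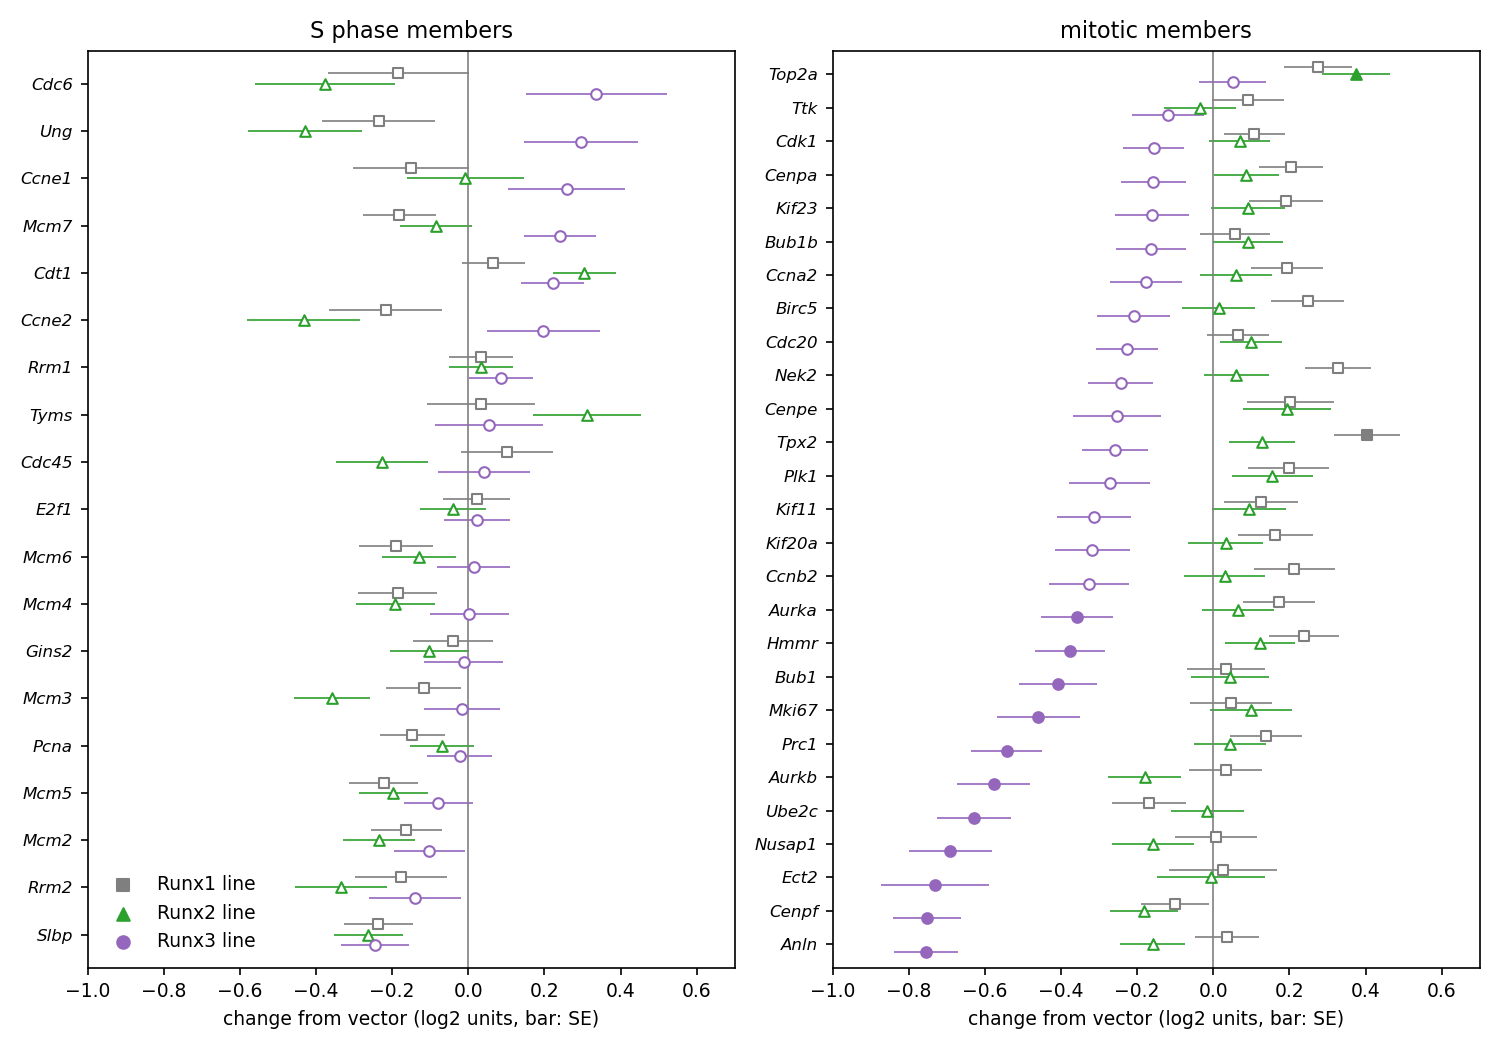
Change from vector of each S phase gene (left) and mitotic gene (right) in the Runx1, Runx2 and Runx3 lines, in log2 units, with bars of 1 SE and filled marks for an adjusted p under 0.05. The filled circles of the Runx3 line are 11 mitotic genes, from Anln at −0.75 to Aurka at −0.36, while the S phase genes of that line lie on both sides of 0.

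Some of these calls rested on single arrays. Without vector replicate 2 the count of mitotic genes called was 7, and without any other of the 4 arrays it was 8, while 26 of 27 stayed negative each time. The calls lost were among Aurka, Bub1, Hmmr, Mki67 and Ect2. Anln, Nusap1, Ube2c, Prc1 and Aurkb kept theirs under each alternative tried. With only genes above 5 log2 units tested, 17 mitotic and 2 S phase genes were called, and with the 4-OHT vector arrays as control 15 and 4. The shares of all genes called under these alternatives are not given. For 8 of the 11 genes other probe sets existed, 12 in number, and 11 of these had the same sign, some near 0 (Bub1 −0.00, Cenpf −0.00 and −0.08). With the mean of probe sets Bub1, Cenpf and Hmmr lost their calls. In the comparisons with the Runx1 and Runx2 lines below, 20 of 24 and 15 of 19 such probe sets of called mitotic genes had the same sign. Markers moved in the same line: 2 of 6 epithelial genes rose, Krt8 by 2.72 and Cdh1 by 1.35, and the log2 of their summed linear level ran from 7.55 to 7.74 on the Runx3 arrays against 6.64 on both vector arrays. Of the 10 fibroblast markers 2 rose (Col1a1 0.85, Pdgfrb 0.89) and 3 fell (Pdgfra −1.38, Thy1 −1.21, Col3a1 −0.50). Their log2 summed level was 15.23 to 15.30 against 15.29 to 15.30. That sum is set mostly by the brightest markers and hardly registers the falls of Thy1 and Pdgfra. The part of these shifts in the fall of mitotic genes was not tested.

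The CHR letters were present in 8 of the 10 mitotic genes with a window that fell in the Runx3 line and in 10 of the 13 others.

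**Figure D3:**
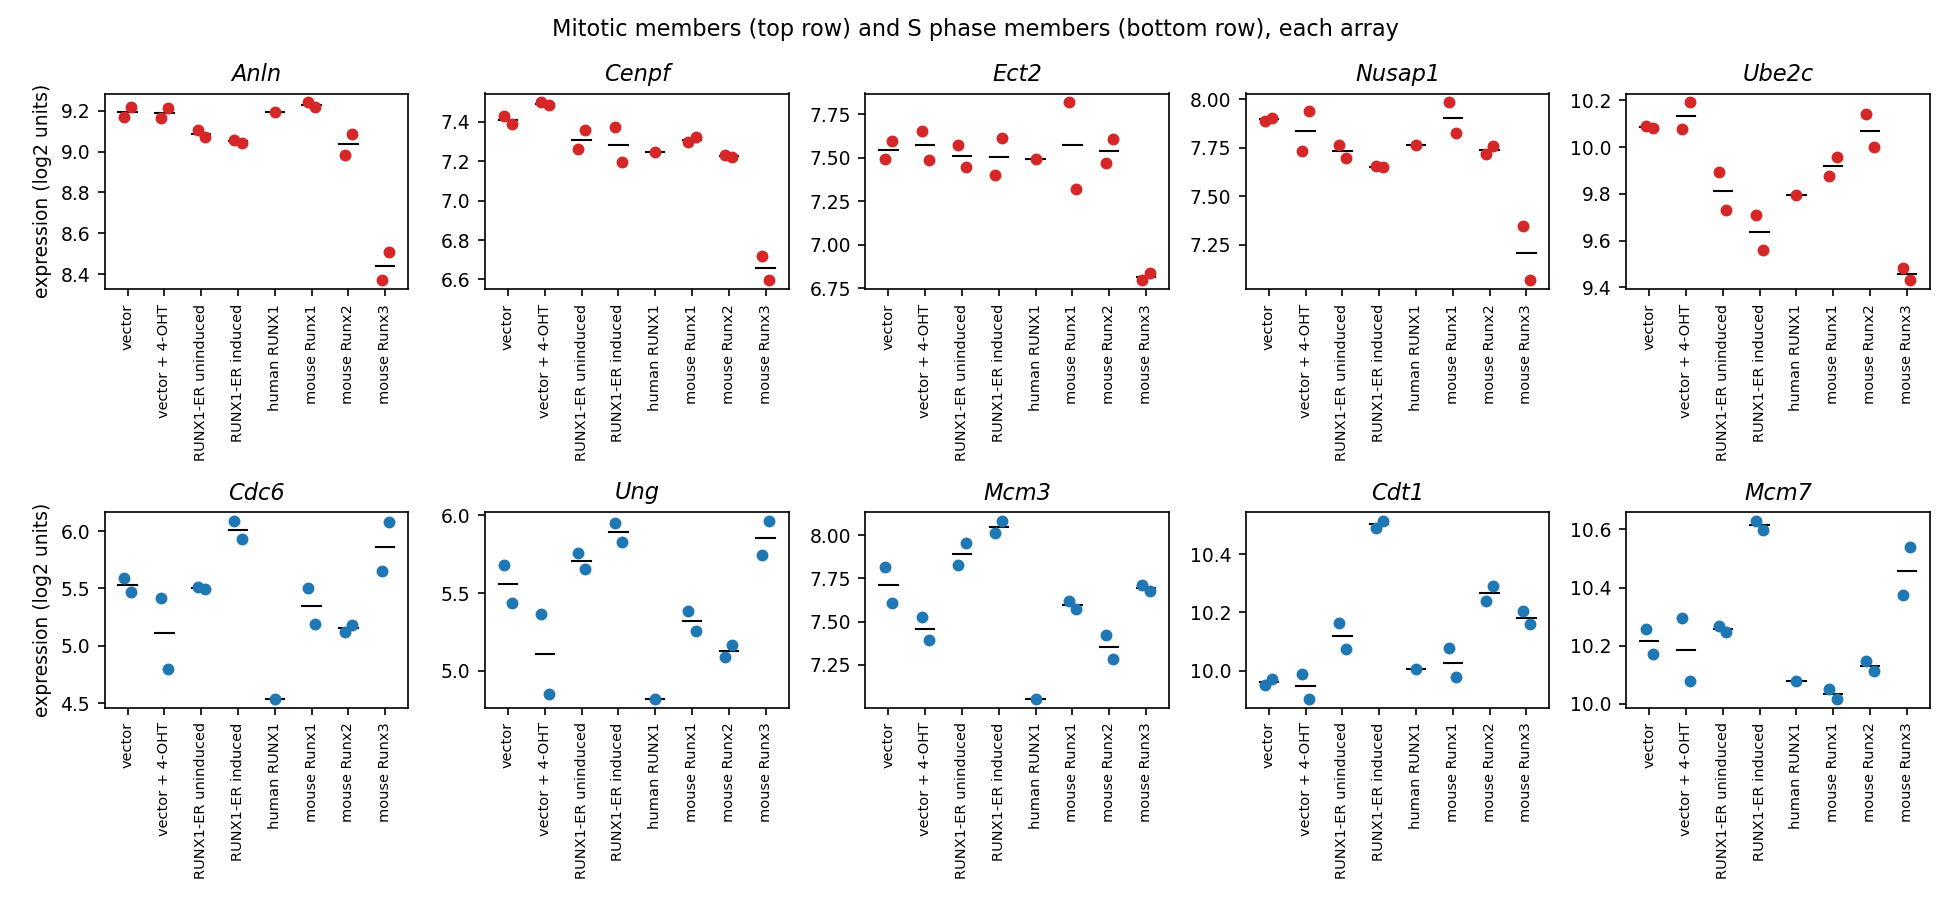
Level on every array, in log2 units, of 5 mitotic genes (top row) and 5 S phase genes (bottom row), with points for arrays and short lines for group means; each panel has its own vertical scale, which does not start at 0. In Anln, Cenpf, Ect2, Nusap1 and Ube2c the Runx3 arrays are the lowest 2, and in Mcm3, Cdt1 and Mcm7 the induced RUNX1-ER arrays include the highest.

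Set directly against the Runx1 line, the mitotic genes of the Runx3 line were lower too. Of the 27, 21 were lower at an adjusted p of 0.05 by limma, where 6.52% of all genes were called and 4.13% were lower, and for all 27 both Runx3 arrays lay below both Runx1 arrays (22% of all genes). The median was −0.47, beside 0.01 for all genes. Anln (−0.79), Ect2 (−0.76), Nusap1 (−0.70), Prc1 (−0.68) and Tpx2 (−0.66) differed most. Tpx2 activates Aurora A on the spindle, and it read 8.73 and 8.71 in the Runx1 line against 8.10 and 8.01 in the Runx3 line (SE 0.09, limma adjusted p = 0.000437). The 6 genes that did not pass were Top2a, Cdk1, Bub1b, Kif23, Cdc20 and Ttk, at −0.35 to −0.21. Of the S phase genes 1 was higher (2.39% of all genes were), the helicase gene Mcm7, at 10.37 and 10.54 against 10.05 and 10.02 (0.42, SE 0.10, limma adjusted p = 0.0171), and it lost its call without Runx1 replicate 1, Runx1 replicate 2 or Runx3 replicate 2. The count of 21 became 13 without either Runx1 array, 15 without Runx3 replicate 1, 12 without Runx3 replicate 2, and 11 in a fit of the compared groups alone.

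Against the Runx2 line the same direction was seen, with 15 of 27 mitotic genes lower (3.76% of all genes called, 1.91% lower) and a median of −0.40. All 27 differences were negative, and for all 27 both Runx3 arrays lay below both Runx2 arrays, which was so for 19.4% of all genes. Ect2 (−0.73), Ube2c (−0.61), Anln (−0.60), Prc1 (−0.59) and Cenpf (−0.57) differed most. The S phase genes Ung, a uracil glycosylase that repairs DNA during replication, and Ccne2, a cyclin of S phase entry, were higher in the Runx3 line, by 0.72 and 0.63 (SE 0.15 for both, limma adjusted p = 0.0177 and 0.0356, with 1.85% of all genes higher). Neither kept its call under all of these leave-outs, at limma adjusted p up to 0.147 for Ung and 0.246 for Ccne2. Ccne2 was dim, at means of 4.42 in the Runx3 line and 3.79 in the Runx2 line, so the size of its difference is uncertain. The epithelial genes Krt8 and Cdh1 were also higher in the Runx3 line than in either line, by 2.33 and 0.90 against Runx1 and by 1.75 and 1.01 against Runx2. Of the 10 fibroblast markers, Col1a1 (0.74) and Fn1 (0.51) were higher and Thy1 (−0.78) and Pdgfra (−0.74) lower than in the Runx1 line, and Col3a1 (−0.42), Thy1 (−0.64) and Pdgfra (−0.83) were lower than in the Runx2 line. The part of these markers in the mitotic differences was not tested. Without Runx2 replicate 1 or 2, or Runx3 replicate 1 or 2, the mitotic count was 8, 4, 6 and 4, and in a fit of these groups alone it was 0, with both S phase calls lost as well.

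Between the Runx2 and Runx1 lines limma called 0 of 19 S phase genes and 0 of 27 mitotic genes, with 3 and 5 at an unadjusted p under 0.05, where 1.5% of all genes were called and 11.1% had such a p. The largest values were −0.33 for Cdc45 and 0.28 for Tyms among S phase genes, the latter from a dim probe set whose arrays overlapped (3.87 and 3.31 against 3.38 and 3.24), and −0.28 for Tpx2 and −0.27 for Nek2 among mitotic genes.

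In the Runx1 and Runx2 lines themselves hardly any member passed. The comparisons of these lines and of the Runx3 line with vector share the same vector arrays. In the Runx1 line 1 mitotic gene rose, Tpx2, from 8.28 and 8.35 with vector to 8.73 and 8.71 (0.40, SE 0.09, limma adjusted p = 0.0336), where 1.7% of all genes were called and 0.973% were higher. The median of the mitotic genes was 0.14, with 25 of 27 positive, and that of the S phase genes −0.16, with 14 of 19 negative, Slbp and Ung the largest at −0.24, and 0 called by limma (2 at an unadjusted p under 0.05, beside 9.73% of all genes). In the Runx2 line 1 mitotic gene rose, Top2a, from 9.29 and 9.30 to 9.65 and 9.68 (0.37, SE 0.09, limma adjusted p = 0.0432), where 2.57% of all genes were called and 0.923% were higher. There the S phase median was −0.19 and 16 of 19 changes were negative. Ccne2 and Ung, both at −0.43, were the largest, Ccne2 from a dim probe set (mean 3.79 against 4.22 with vector). Limma called 0 S phase genes there, with 9 at an unadjusted p under 0.05, beside 12.5% of all genes. Tpx2 and Top2a each missed the threshold without any 1 of the 4 arrays compared. With the 4-OHT vector arrays as control the S phase medians were 0.01 in the Runx1 line and −0.06 in the Runx2 line, so the sign in the Runx1 line differed between the controls. Of the 10 fibroblast markers Pdgfrb rose and Pdgfra fell in each line, by 1.15 and −0.64 in the Runx1 line and by 0.98 and −0.55 in the Runx2 line. Of the 6 epithelial markers limma called 0 in the Runx1 line (1 at an unadjusted p under 0.05) and 1 in the Runx2 line, Krt8, higher by 0.97, and the part of these markers in the members' values was not tested.

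The S phase median minus the mitotic median was −0.30 in the Runx1 line, −0.25 in the Runx2 line and 0.34 in the Runx3 line, and −0.11, −0.081 and 0.46 with the 4-OHT vector arrays as control. The SD of that difference between replicate arrays was 0.076. On the arrays themselves the S phase median, as difference from the vector mean, was −0.095 and −0.20 in the Runx1 line and 0.0026 and 0.047 in the Runx3 line, and the mitotic median was 0.14 on both Runx1 arrays and −0.30 and −0.35 on the Runx3 arrays. Both Runx3 arrays were the lowest 2 of the 15 for 17 of 27 mitotic genes (63.0%), 0 of 19 S phase genes and 4.22% of all genes.

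**Figure D4:**
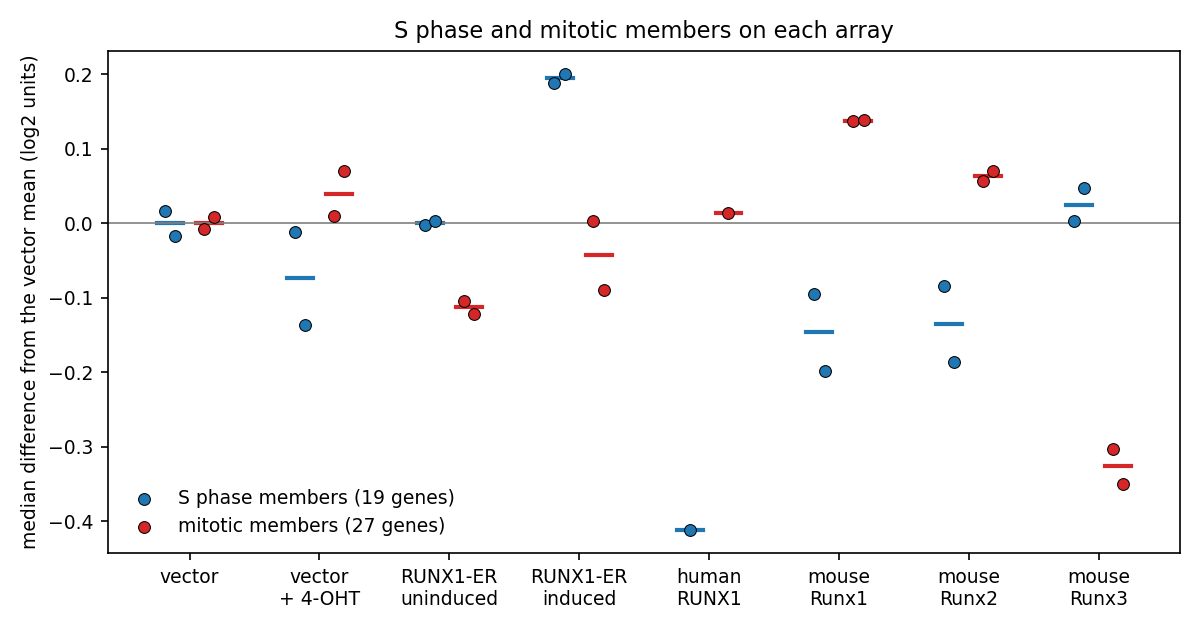
Median over the S phase genes (19, blue) and over the mitotic genes (27, red) of the difference from the vector mean on each of the 15 arrays, in log2 units, with a bar at each group's mean. The mitotic medians of the Runx3 arrays are the lowest, at −0.30 and −0.35, the S phase medians of the induced RUNX1-ER arrays are the highest, at 0.19 and 0.20, and the S phase median of the human RUNX1 array is −0.41.

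Induction of RUNX1-ER was followed over 24 h of 4-OHT. Against the uninduced cells 1 of 19 S phase genes rose, Cdt1, the licensing factor that brings the helicase to origins, from 10.16 and 10.07 to 10.49 and 10.51 (0.38, SE 0.08, limma adjusted p = 0.0355), where 1.92% of all genes were called and 1.01% were higher. It missed the threshold without any 1 of the 4 arrays. The S phase changes were positive in 18 of 19 genes with a median of 0.19, beside 0.02 for all genes. Limma called 0 of the 27 mitotic genes (3 at an unadjusted p under 0.05, beside 11.5% of all genes), and their median was 0.05, with Top2a at 0.27 and Ccna2 at 0.25 the largest values.

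4-OHT alone had to be set against this. In vector cells limma called 0 of 18193 genes with 4-OHT, members included (0.0%), while 6.73% of all genes, 3 S phase genes and 0 mitotic genes had an unadjusted p under 0.05. The S phase median was −0.07, and the largest values were −0.45 for Ung and −0.42 for Cdc6 (limma adjusted p = 0.634 and 0.734), and −0.19 for both Ttk and Kif11 among mitotic genes. Vector replicate 2 with 4-OHT was the low array, with Cdc6 at 4.80 against 5.42 on replicate 1, and Ung at 4.85 against 5.37. When arrays were centred on the median of bright genes the S phase median here became 0.00.

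Induction beyond the 4-OHT effect, tested as an interaction, gave 0 calls among the members by limma (0.605% of all genes called), with 8 S phase and 0 mitotic genes at an unadjusted p under 0.05, beside 10.5% of all genes. The largest S phase values were 0.93 for Cdc6 (SE 0.26, limma adjusted p = 0.176) and 0.63 for Ung, the largest mitotic values were 0.30 for Kif11 and 0.22 for Ttk, and the S phase median was 0.27 beside 0.05 for all genes. Leaving out vector with 4-OHT replicate 1 gave 2 S phase calls, and leaving out any other single array gave 0. Uninduced RUNX1-ER cells differed from vector in 0 members by limma (0.044% of all genes called), with 0 S phase and 4 mitotic genes at an unadjusted p under 0.05, beside 7.95% of all genes. Their mitotic changes were negative in 26 of 27 genes, with a median of −0.11, beside −0.02 for all genes, and Ube2c (−0.27) and Birc5 (−0.25) had the largest values. Among S phase genes these were Mcm3 (0.18) and Cdt1 (0.16).

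The comparison with the most S phase calls was that between induced RUNX1-ER cells and vector cells given the same 4-OHT. Here 5 of 19 S phase genes were higher and 0 lower, where 4.16% of all genes were called and 2.9% were higher, and 18 of 19 changes were positive with a median of 0.27 (0.17 with arrays centred on the median of bright genes, and 0.03 for all genes uncentred). Cdc6 read 6.09 and 5.93 in the induced cells against 5.42 and 4.80, a change of 0.90 (SE 0.18, 1.87-fold, limma adjusted p = 0.0152). Ung read 5.95 and 5.83 against 5.37 and 4.85 (0.78, SE 0.15, limma adjusted p = 0.0102). In both genes the groups did not overlap, and without the low vector replicate 2 with 4-OHT the changes were 0.59 and 0.52 (limma adjusted p = 0.124 and 0.0843). The helicase genes Mcm3 and Mcm7 were higher by 0.59 and 0.43 (SE 0.10 for both), and the other helicase genes Mcm2, Mcm4, Mcm5 and Mcm6 did not pass, at 0.27 to 0.36. Cdt1 was higher by 0.56 (SE 0.08, limma adjusted p = 0.00220).

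The rest of the S phase genes gave smaller values. Ccne2, whose probe set was dim (means 4.46 against 3.92), was at 0.54 (limma adjusted p = 0.0633). The sliding clamp Pcna was at 0.24, the large subunit of ribonucleotide reductase Rrm1 at 0.24 and its small subunit Rrm2 at 0.06. Of the proteins that fire the helicase, Cdc45 was at 0.18 and Gins2 at 0.19. E2f1, itself an E2F factor, was at 0.06. For 10 of the 19 S phase genes both induced arrays were the highest of the 15, among them all 6 helicase genes, which was so for 0 of 27 mitotic genes and 2.51% of all genes.

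Of the mitotic genes 1 was lower in this comparison, Ube2c, at 9.71 and 9.56 against 10.08 and 10.19 (−0.50, SE 0.10, limma adjusted p = 0.0112), and the mitotic median was −0.09 (1.26% of all genes were lower). The S phase count was 2 without RUNX1-ER induced replicate 1, induced replicate 2 or vector with 4-OHT replicate 2, and 0 in a fit of these groups alone, and 6 without vector with 4-OHT replicate 1. With only genes above 5 log2 units tested it was 11 of the 17 S phase genes left, and the share of all genes called there is not given. The call of Ube2c was lost without induced replicate 2 or vector with 4-OHT replicate 2. Among the fibroblast markers 1 of 10 was higher (Pdgfrb by 1.00) and 2 were lower (Pdgfra by −0.76, Col3a1 by −0.42), and 0 of 6 epithelial markers were called by limma (1 at an unadjusted p under 0.05); their part in the S phase result was not tested.

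The human RUNX1 line had a single array and therefore no test. Its S phase genes were low: 18 of 19 were below the vector mean, 7 by at least 0.5 log2 units, where 6.32% of all genes were that much lower, and the median difference was −0.41. No S phase gene was higher by that much (2.48% of all genes were). Rrm2 differed by −0.85. Ccne2 read 2.88, a dim level below the array medians at which the size of a difference is uncertain, against 4.24 and 4.21 with vector. Among brighter genes Cdc6 was at 4.54 against 5.59 and 5.47, Mcm3 at 7.05 against 7.81 and 7.61, and Ung at 4.82 against 5.68 and 5.44. Cdt1 was the only S phase gene above the vector mean, by 0.04. On 13 of the 19 S phase genes this array was the lowest of the 15, against 1 of 27 mitotic genes and 16.3% of all genes. The mitotic median was 0.01, with Aurkb at −0.59 and Ttk at −0.53 below and Cenpa at 0.45 and Ccnb2 at 0.34 above.

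**Figure D5:**
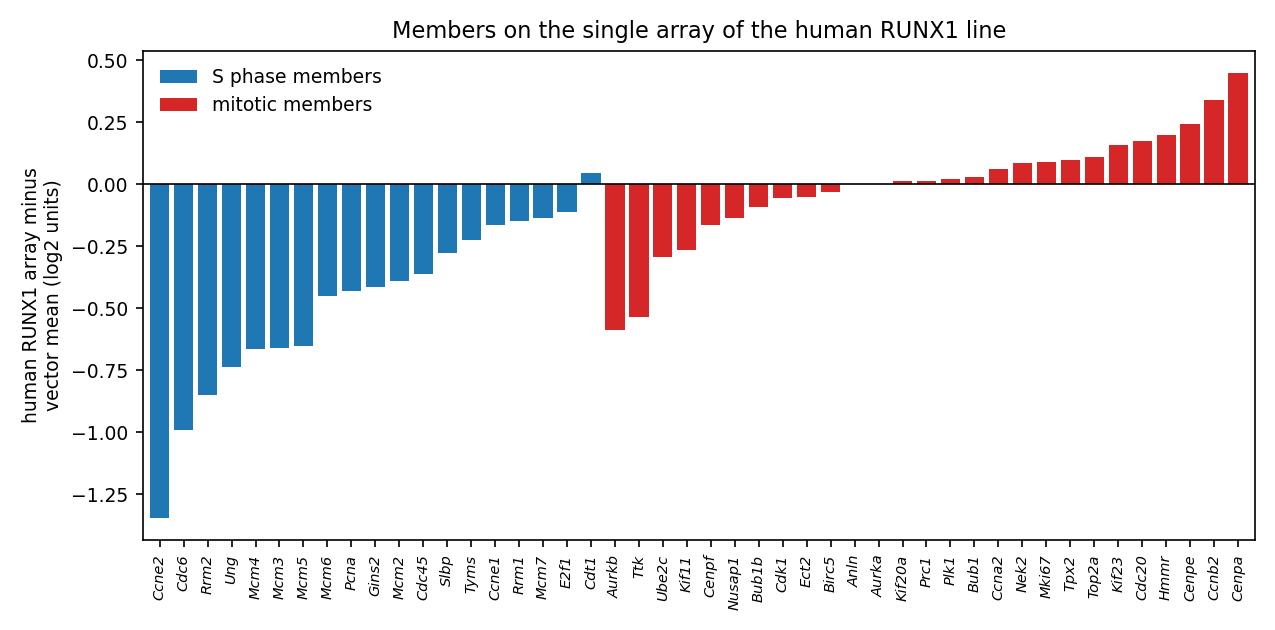
Difference of each member on the single human RUNX1 array from the mean of the 2 vector arrays, in log2 units, with S phase genes in blue and mitotic genes in red. All S phase bars but that of Cdt1 lie below 0, down to −1.34 for Ccne2 (dim on this array, so of uncertain size), and the mitotic bars run from −0.59 for Aurkb to 0.45 for Cenpa.

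This array was also the one that stood apart from the rest. The median of genes above 5 log2 units was 0.14 lower on it than on the vector arrays, and centring each array on that median gave −0.28 for the S phase and 0.15 for the mitotic list, leaving their difference at −0.43. The mouse Runx1 line, with 2 arrays, had an S phase median of −0.16 by the same measure against vector. Epithelial markers summed to 7.06 on the human RUNX1 array against 6.64 on the vector arrays (log2 of the summed level), and the fibroblast markers to 15.16 against 15.29 and 15.30, and their part in the low S phase values was not tested.

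Further genes of the same processes, listed with the members' results known, were read in the same fits. Of 54 other mitosis genes, 16 fell and 1 rose in the Runx3 line against vector, beside 9.37% of all genes called and 5.4% called lower, with a median of −0.21. Depdc1a fell by 0.83 (SE 0.14) and Cdc25b, the phosphatase that activates Cdk1, by 0.81 (SE 0.09), and Cenpi and Aspm, of the centromere and the spindle pole, fell by 0.57 and 0.56. The condensin genes Ncapd2, Ncapg, Ncaph and Smc4 were among the 16, at −0.51, −0.39, −0.42 and −0.29. Cks2, which binds Cdk1, was the gene that rose, by 0.49 (SE 0.09), and it rose in the Runx1 and Runx2 lines as well, by 0.49 and 0.52. Its call in the Runx1 line was lost without any 1 of the 4 arrays, and in the Runx2 line without either vector array. Trip13 also rose in the Runx1 line, by 0.47, with a call that any 1 array left out removed. Of the 54 genes, 2 were called in the Runx1 line (1.7% of all genes were) and 1 in the Runx2 line (2.57%).

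The same list showed 20 genes lower and 0 higher in the Runx3 line against the Runx1 line, where 4.13% of all genes were lower, and 11 lower and 0 higher against the Runx2 line, where 1.91% were. Against Runx1, Depdc1a (−0.88), Cdc25b (−0.84), Tacc3 (−0.66) and Aspm (−0.64) differed most, and against Runx2, Ncaph (−0.59), Depdc1a (−0.55), Cdca2 (−0.54) and Cdc25b (−0.52). Depdc1a missed the threshold against Runx2 without any 1 of the 4 arrays, and Cdca2 and Cdc25b without Runx2 replicate 1 or Runx3 replicate 2. Of 47 other replication genes, 1 rose and 1 fell in the Runx3 line against vector: Fen1, the flap endonuclease, rose by 0.36, and Rpa1, of the single-strand binding complex, fell by 0.30, with a median of −0.06 for the list (9.37% of all genes were called). Both calls were lost without any 1 of the 4 arrays. Fen1 (0.38) and the chromatin assembly gene Chaf1b (0.35) were higher and Dbf4, the activator of the Cdc7 kinase, lower (−0.42) than in the Runx1 line. They were 3 of 47 called, beside 6.52% of all genes. Orc1 (0.53) and Chaf1b (0.39) were higher than in the Runx2 line, 2 of 47 called beside 3.76% of all genes. Each of these 5 differences missed the threshold when any 1 of its 4 arrays was left out. In the Runx2 line 1 of 47 was called (2.57% of all genes were), the origin recognition gene Orc1, which fell by 0.54. Its call was lost without any 1 of the 4 arrays. Between induced and uninduced RUNX1-ER cells the origin recognition gene Orc5 and the kinetochore gene Spc24 rose, by 0.49 and 0.50. These were 1 of 47 replication and 1 of 54 mitosis genes called, beside 1.92% of all genes. Orc5 missed the threshold without uninduced replicate 2 or either induced array, and Spc24 without induced replicate 2. Between induced RUNX1-ER cells and vector with 4-OHT, 6 of the 47 were higher and 0 lower (2.9% of all genes were higher), led by the chromatin remodeller Hells (0.63), Orc1 (0.56), Mcm10 (0.55) and the clamp loader subunit Rfc3 (0.55), with a median of 0.22. These 4 lost their calls without vector with 4-OHT replicate 2 or induced replicate 1.

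Of 22 regulators of the E2F, DREAM and MuvB families 1 rose and 1 fell in the Runx3 line (9.37% of all genes called) and 1 fell in the Runx2 line (2.57% called). In the Runx1 line limma called 0, with 0 at an unadjusted p under 0.05, and 2 were higher in induced RUNX1-ER cells than in vector with 4-OHT (2.9% of all genes higher). Rbl2, the pocket protein p130 of the DREAM complex, fell by 0.57 in the Runx3 line (SE 0.11, limma adjusted p = 0.00438). In the Runx2 line it fell by 0.56 (SE 0.11), and in the Runx1 line its value was 0.03. Against the Runx1 line it was lower in the Runx3 line (−0.60) and in the Runx2 line (−0.59), and Tfdp2 was higher in the Runx3 line (0.41). These were 2 of 22 regulators called for Runx3, beside 6.52% of all genes, and 1 of 22 for Runx2, beside 1.5%. The Runx2 difference of Rbl2 and that of Tfdp2 missed the threshold without any 1 of their 4 arrays, and the Runx3 difference of Rbl2 without Runx1 replicate 2 or Runx3 replicate 2. With the mean of its probe sets both calls of Rbl2 against vector were lost, and each was lost without vector replicate 1. Tfdp2, a dimer partner of E2F proteins, rose by 0.58 in the Runx3 line (SE 0.10, limma adjusted p = 0.00277) and was 0.44 higher in induced RUNX1-ER cells than in vector with 4-OHT, where it missed the threshold without vector with 4-OHT replicate 2 or either induced array. E2f3, an activating E2F, was 0.70 higher there (SE 0.15, limma adjusted p = 0.0205), and its call was lost without any 1 of the 4 arrays. The list medians were −0.10 in the Runx3 line and 0.17 in that last comparison.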

How the data were processed

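RNA of 15 NIH3T3 samples was hybridised to Affymetrix arrays. The deposited values are log2 expression values that the authors obtained, per the labels' protocols, by reading arrays with GCOS and normalizing them with RMA in the Bioconductor affy module of a facility pipeline; for tool versions, none was given in the sources used here. Such normalization brings arrays close to 1 distribution, though their 75th percentiles still ran from 5.48 to 5.71 log2 units. An overall rise or fall of RNA can therefore stay hidden, and differences of dim probe sets are compressed. The number of arrays limits the precision.

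Of 45101 probe sets, 34958 had 1 gene symbol, 932 several and 9211 none. The brightest probe set of each of 18193 genes was fitted with limma 3.58.1 in R 4.3.3 (lmFit and eBayes, 1 coefficient per group, all 15 arrays, 7 residual and 5.65 prior degrees of freedom), with two-sided tests and Benjamini-Hochberg adjustment over all genes at a threshold of 0.05. Where a group has 1 array it was assumed to vary like the others. Lists are described by counts and medians. The members and lists were chosen with earlier results of these data known. Named were, per comparison, up to 5 members of each list past the threshold with non-overlapping arrays and the largest change (the 2 largest values where none passed; threshold alone for the interaction) and up to 4 of each other list; further members are given by role, chosen after their values were seen. Tested on simulated data for the Runx3 comparison with vector over 18193 genes, the fit recovered 35 of 100 genes changed by 0.5 log2 units and 95 of 100 changed by 1, with 9 false calls among 17993 unchanged genes. Alternatives changed the probe set rule, the filter, the samples in the fit, the control, centring, the variance model and single arrays. Promoter windows came from RefSeq.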

Additional observations from a re-analysis of the deposited data

Results flagged for a closer look

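The difference between lines was tested directly, which is the same as testing whether a gene's change from vector differed, since the vector arrays cancel. Between the Runx3 and Runx1 lines 21 of 27 mitotic genes and 1 of 19 S phase genes (Mcm7) differed by limma with Benjamini-Hochberg adjustment. In that comparison 6.52% of all genes were called. Between the Runx3 and Runx2 lines 15 of 27 mitotic genes and 2 of 19 S phase genes (Ung and Ccne2) differed, beside 3.76% of all genes. All mitotic genes that differed were lower in the Runx3 line, and the 3 S phase calls were higher there. Both comparisons share the Runx3 arrays. No group had enough arrays to look for a single array far from its group.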

How the results depend on the processing

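With 2 arrays a group, single arrays decide many calls, and the brightness of a probe set limits what can be seen. Of 64 named changes past the threshold, 445 alternative values kept direction and call, 211 kept the direction and missed the threshold, and 0 reversed; the S phase median minus the mitotic median changed sign in 0 alternatives.

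Counts are S phase, then mitotic, members called, where they moved by over 1.5 times. The share of all genes called under each alternative is not given, so these counts cannot be set against it. Fitting the compared groups alone gave 0 mitotic calls for Runx1 and for Runx2 against vector, 0 and 11 for Runx3 against Runx1, 0 and 0 against Runx2 and for induced RUNX1-ER against vector with 4-OHT, and 0 S phase calls for induced against uninduced. With genes above 5 log2 units alone, the counts were 2 mitotic for Runx1, 2 S phase for Runx2, 2 and 17 for Runx3, 2 S phase for Runx3 against Runx1, 4 S phase against Runx2, 2 S phase for induced against uninduced and 11 S phase against vector with 4-OHT. In these 2 alternatives the number of samples or of genes tested differs by construction; for the others the cause was not tested. With trend and robust variance they were 2 mitotic for Runx1, 4 S phase for Runx2, 3 S phase for Runx3, 1 S phase for Runx2 against Runx1, 2 and 5 S phase for Runx3 against Runx1 and Runx2, 3 and 2 for induced against uninduced, 2 S phase for induction beyond 4-OHT and 12 S phase against vector with 4-OHT. The mean of probe sets gave 0 mitotic calls for Runx1 and Runx2 and 0 S phase calls for Runx3 against Runx1 and induced against uninduced, and S phase minus mitotic medians of −0.17 (Runx2), 0.26 (Runx3), 0.45 and 0.42 (Runx3 against Runx1 and Runx2), with a mitotic median of −0.025 for human RUNX1. Centring gave 0 mitotic calls for Runx1, 1 S phase call for Runx2, 2 S phase calls for Runx3 against Runx1, and human RUNX1 medians of −0.28 and 0.15. With vector plus 4-OHT as control, Runx2 had 0 mitotic and Runx3 4 S phase calls, and the differences of medians were −0.11, −0.081 and 0.46.

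Leaving out 1 array gave 0 mitotic calls for Runx1, 0 to 1 S phase and 0 mitotic for Runx2, 7 to 8 mitotic for Runx3, 0 to 1 S phase for Runx2 against Runx1, 0 to 1 and 12 to 15 for Runx3 against Runx1, then 0 to 2 and 4 to 8 against Runx2, 0 S phase for induced against uninduced, 0 to 2 S phase for induction beyond 4-OHT, and 2 to 6 and 0 to 1 against vector with 4-OHT. The differences of medians ran from −0.26 to −0.14 for Runx2, 0.58 to 0.70 and 0.46 to 0.61 for the Runx3 line set against Runx1 and Runx2, −0.21 to −0.021 for 4-OHT, 0.14 to 0.35 for induction beyond 4-OHT and 0.28 to 0.44 against vector with 4-OHT.

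The replicate numbers did not pair the arrays: of 21 pairs of groups, 1 had same-numbered deviations correlated above 0.1 (range −0.121 to 0.116). A replicate block left 60 of 64 named calls and lost 4, with 11 mitotic calls for Runx3 against vector, 12 for Runx3 against Runx2, 0 for Runx2 against vector, and 2 S phase calls for Runx3 against Runx1.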
